A study of Octopus bimaculoides with 95 samples.

Results

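Gene expression was compared between the retina and the optic lobe of Octopus bimaculoides, the California octopus. The comparison used 9 of the 95 RNA sequencing libraries of the study: 3 of retina, 3 of the deep medulla of the optic lobe and 3 of its plexiform periphery. They were chosen by their tissue labels, and both optic lobe parts carried equal weight against the retina. The study covered 46 tissues on a sequencing plate, 21 neural and 25 non-neural, with the retina counted among the latter, and held 10 further libraries in a second table. RNA came from whole tissue, and no treatment, strain, sex or age is given in the labels. Expression is in TPM, read counts scaled by transcript length and library total, rescaled here without the spike-in RNAs. Differences are on the log2(TPM + 1) scale as retina minus optic lobe, a scale that understates the change of genes at low levels.

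The octopus eye is a camera eye whose photoreceptors are of the rhabdomeric, microvillar type. Their light cascade runs from rhodopsin through a Gq protein and phospholipase C to ion channels, and a second pigment, retinochrome, takes part in regenerating the chromophore. The cephalopod retina holds photoreceptors and supporting cells, while the interneurons of vision sit in the optic lobe, which the photoreceptor axons enter. There they end in the layered outer zone with its plexiform layer, and deeper processing takes place in the medulla, which sends fibres on to the central brain. The sources used here give the genes no product names, so it is not known from them which gene IDs encode these proteins. The genes are therefore described by ID, level and pattern.

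The 9 libraries differed widely in depth. Whole reads could be recovered from the steps between low TPM values. Over 1 row per gene, they summed to between 137484 and 3644940 per library. Retina 3 was the shallowest, with 6103 genes at 1 TPM or more against at most 10206 elsewhere, and 1 of its reads was worth a median of 3.52 TPM. Retina 1 and 2 had 623876 and 640287 recovered reads. Spike-ins took 19.8% to 85.1% of the deposited total. Across genes, Pearson's r of log2 values was 0.59 to 0.74 among retina libraries, 0.56 to 0.89 among optic lobe libraries and 0.41 to 0.73 between retina and optic lobe, so these ranges overlapped. Retina 3 correlated at 0.59 with Retina 1 and 0.70 with Retina 2, and at up to 0.67 with an optic lobe library, periphery 1. With no product names, markers of photoreceptors, neurons or other cell types could not be checked. The labels do not say that the libraries came from separate animals, and the descriptions of Retina 1 and 2 carry L and R and share a closing letter, C, while Retina 3 has B; what the letters mark is not stated. P-values therefore measure the spread between these libraries, which may be technical. In whole tissue, fewer cells of a type and less RNA per cell cannot be told apart.

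Retina and optic lobe differed in 425 genes, of which 194 were higher in the retina and 231 higher in the optic lobe. Of 10428 genes at 1 TPM or more in at least 3 of the 9 libraries, this is 4.08% in either direction, 1.86% higher in retina and 2.22% higher in optic lobe. A call needed an adjusted p under 0.05 in limma and a log2 difference of at least 1. The median log2 difference of all tested genes was -0.46, so the whole distribution leaned towards the optic lobe on this scale. Under quantile scaling that median was -0.07, and 61.0% of 392 calls were then higher in retina, against 45.6% on the main scale. On the deposited scale with spike-ins 60.8% of 199 calls were higher in retina, so the balance between the directions changed with the scaling. Each of the 425 genes that could be tested kept its own direction under every alternative tried. In 409 of them all retina libraries lay on one side of all optic lobe libraries. A left-out library or another pseudocount or filter could not reverse these, so little is read from the kept direction. The number of calls rested in part on single libraries: it was 141 without Retina 2, 217 without Retina 1, 273 without Retina 3 and 276 without periphery 3. Whichever retina library was left out, 367 of the 425 genes were still tested. The filter at 3 libraries thus made part of the falls without a retina library.

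**Figure D1:**
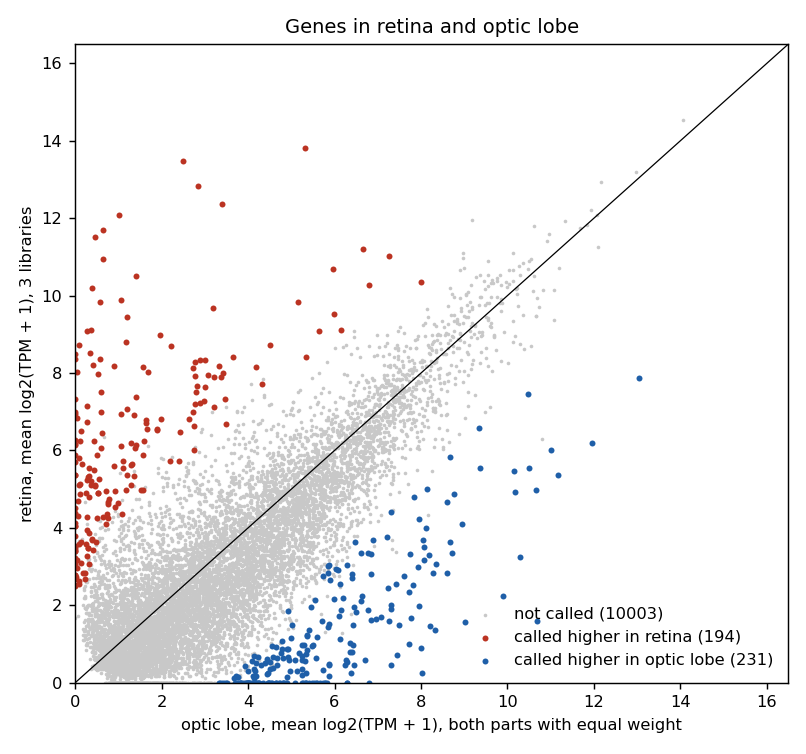
Mean log2(TPM + 1) of 10428 genes in the optic lobe (x axis, both parts with equal weight) and the retina (y axis, 3 libraries); the line marks equal values, and the 194 genes called higher in retina and 231 called higher in optic lobe are coloured. Called genes reach log2 differences of 11.08 towards retina and -9.10 towards optic lobe, while most of the other genes lie along the line.

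The called differences were large. The median size was 4.63 on the log2 scale for retina genes, with a range of 2.34 to 11.08, and 4.40 for optic lobe genes, with a range of 2.77 to 9.10. Of the retina genes, 58 reached 1 TPM in no optic lobe library and so passed the filter through the retina alone; these had to differ. Of the optic lobe genes, 88 reached it in no retina library. The medians include genes listed at 0 on the lower side, 31 in all optic lobe libraries and 67 in all retina libraries. With such genes set to the bound that 3 reads per library allow, the medians were 4.45 and 3.91. For 4 of the 31 and 10 of the 67 that bound did not exceed 0, so their 0 alone shows no difference at this depth.

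The 12 named retina genes, the 12 with the largest difference among called genes whose groups did not overlap and whose higher side averaged 10 TPM or more, had their highest mean of all 46 plate tissues in the retina. They were abundant there and at or close to 0 in most optic lobe libraries. All 3 retina libraries lay above all 6 optic lobe libraries in 193 of the 194 genes called higher in retina, against 3.07% of all tested genes. Since the call and the rule use the same contrast, nothing further is read from that count.

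LOC106884522 had the largest difference. It stood at 2013, 4961 and 8175 TPM in Retina 1, 2 and 3, at 2.03, 0 and 0.570 TPM in medulla 1, 2 and 3, and at 12.8, 0 and 0 TPM in periphery 1, 2 and 3. Every retina library was thus far above every optic lobe library, and the log2 difference was 11.08 ± 0.95 (SE, n = 3 and 6; limma adjusted p = 4.78e-05). Outside the visual tissues its highest mean was 23.6 TPM, in the single library of the clear vessel of the systemic heart.

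LOC106874629 was the most abundant of the retina genes. Its levels were 29126, 20117 and 2485 TPM in Retina 1, 2 and 3, and 23.4, 0, 6.56, 18.4, 4.49 and 0.573 TPM in medulla 1 to 3 and periphery 1 to 3. Retina 3 was the lowest of the retina libraries here, and even so it stood above the highest optic lobe library. The log2 difference was 10.98 ± 1.12 (limma adjusted p = 0.000108) and 12.08 without Retina 3. Its highest level elsewhere was 121 TPM in the single library of the middle subesophageal lobe.

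LOC106868441 went the other way within the retina, with 3170, 4467 and 27097 TPM in Retina 1, 2 and 3. The optic lobe libraries ran from 0 to 34.1 TPM with a median of 7.12, and periphery 1 was the highest of them. Its log2 difference was 9.99 ± 1.01 (limma adjusted p = 0.000108). The level in Retina 3 set much of that mean, and without this library the difference was 9.04.

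LOC106868969 was the most even of the 12. It was at 2086, 1963 and 1900 TPM in the retina libraries, while the optic lobe ran from 0 to 6.43 TPM, with a median of 0.0508. The log2 difference was 10.30 ± 0.84 (limma adjusted p = 4.60e-05), and 10.33 without Retina 3. The level thus held in the shallow library as in the deeper ones. The stellate ganglion, the motor ganglion of the mantle, came next with a mean of 11.4 TPM.

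LOC106870555 was at 1057, 4194 and 8013 TPM in Retina 1, 2 and 3, and at 0 in all optic lobe libraries but periphery 1, where it was at 14.3 TPM. LOC106879326 was at 1377, 2116 and 8540 TPM in the retina and at no more than 2.47 TPM in the optic lobe. Both were lowest in Retina 1 and highest in Retina 3, with limma log2 differences of 11.03 ± 1.00 and 11.06 ± 0.85. LOC106881766, which has a RefSeq non-coding record, was at 2406, 5260 and 11794 TPM in the retina. In the optic lobe it was listed at 0 in medulla 1 and 2 and at 13.8 TPM in medulla 3, while periphery 1 to 3 held 112, 22.7 and 32.1 TPM. The periphery libraries were therefore all above the medulla libraries for this gene, and its retina rank was followed by the optic gland with 71.6 TPM in its single library.

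The remaining 5 genes of the 12 had log2 differences between 8.81 and 9.82. LOC106867858, LOC106881629 and LOC106883841 had retina means of 1581, 1018 and 646 TPM and no optic lobe library above 4.85 TPM. LOC106879057 was at 641, 672 and 7234 TPM in Retina 1 to 3, with 16.8 TPM in medulla 2 as its highest optic lobe value. LOC106869476 was at 924, 395 and 2358 TPM, with 10.6 TPM in periphery 1. Over the 12 genes the highest retina library exceeded the lowest by 1.10 to 11.7 times, and the highest was Retina 3 in 8 of them, Retina 1 in 3 and Retina 2 in 1. Periphery 1 was the highest optic lobe library for 8 of the 12 genes and for 54 of all 194 (27.8%), against 15.5% of all tested genes. Periphery 1 also had the largest spike-in share, 85.1%, and is the only one of the 9 whose label ends in the letter A; the part of either in this pattern was not tested.

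**Figure D2:**
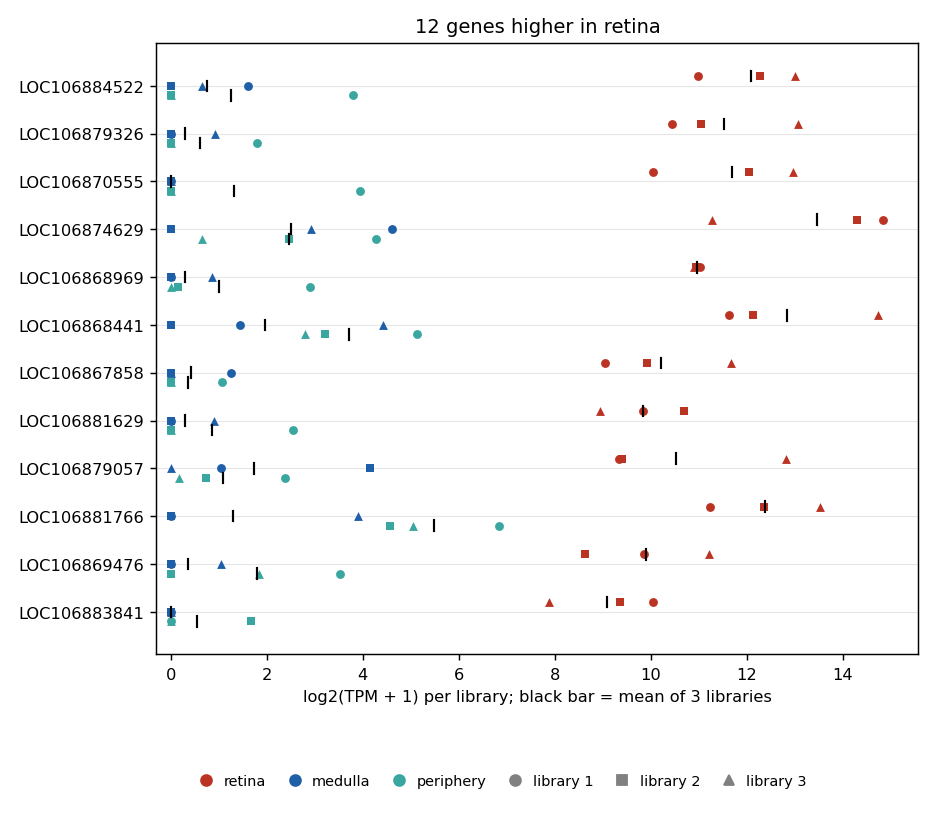
log2(TPM + 1) of the 12 retina genes in each of the 9 libraries; colours mark retina, medulla and periphery, symbols the library number, and black bars the mean of 3 libraries. All retina values lie to the right of all optic lobe values, and periphery 1, the teal circle, is the rightmost optic lobe point for 8 of the 12 genes.

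LOC106880513, chosen after its values were seen, had the second-highest retina mean of the called genes and differed between the parts of the optic lobe. It was at 7360, 14430 and 27900 TPM in Retina 1, 2 and 3, and at 1297, 92.7 and 694 TPM in periphery 1, 2 and 3. In medulla 1, 2 and 3 it was at 4.52, 0 and 7.61 TPM. The 3 tissues did not overlap, with periphery between retina and medulla, and retina against optic lobe gave a log2 difference of 8.49 ± 0.92 (limma adjusted p = 0.000145). Among the 194 retina genes as a whole the periphery mean exceeded the medulla mean in 108 and the reverse held in 55, a periphery share of 55.7% beside 56.1% of all tested genes.

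Abundance spread widely over the 194 retina genes. Of them, 89 averaged 100 TPM or more in the retina and 22 averaged 1000 or more. Together they made up 8.44%, 10.8% and 15.1% of all TPM in Retina 1, 2 and 3, and 0.114% to 0.401% in the optic lobe libraries. The 12 named genes alone took 4.53%, 4.74% and 8.16% of the retina libraries. A non-coding record was held by 12 of the 194 (6.19%), close to the 6.36% of all tested genes.

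The retina was the top tissue on the plate for 99 of the 194 genes (51.03%), against 2.10% of tested genes, a share that the choice of genes for high retina levels raises. Of the 10428 tested genes, 5476 peaked in a non-neural tissue other than the retina and 45.4% in a neural one. Another 76 of the 194 retina genes peaked in a different non-neural tissue and 19 (9.79%) in a neural one. Among these, the olfactory lobe led for 11 genes, the mantle for 9, the branchial heart ventricle for 8, and the aorta, the ova and the clear vessel of the systemic heart for 7 each. All of these but the ventricle rest on 1 library. In the 13 other neural tissues with 3 libraries, 32 of the 194 genes (16.49%) were at 1 TPM or more in every tissue mean, and another 32 in none. Over all tested genes 55.2% were present in all 13 and 1.11% in none. The retina genes were chosen for low levels in the optic lobe, itself neural, which bears on these shares.

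The pattern was read again in each retina library with that library left out of the test. Without Retina 3, limma called 121 genes higher in retina, and Retina 3 itself stood above all 6 optic lobe libraries in 98 of them (81.0%), against 8.62% of the genes tested. It stood below all 6 in 138 of the 152 genes called higher in optic lobe (90.8%, against 20.03% of the genes tested). For Retina 1 the corresponding counts were 85 of 87 (13.4% of the genes tested lay above) and 120 of 130 (19.9% lay below). For Retina 2 they were 54 of 54 (10.3% above) and 87 of 87 (17.3% below). The same 6 optic lobe libraries entered the calls and this reading, so the shares over all genes tested are no matched baseline. Retina 1 and 2 carry L and R with the same letter, so leaving out either may not give an independent reading.

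Dropping Retina 3 lowered the number of called genes to 273, made of 121 higher in retina and 152 higher in optic lobe. Of the 194 retina genes, 96 were still called, and 58 were no longer tested, because they passed the filter only with Retina 3. The 136 that were tested all kept their direction. Of the 231 optic lobe genes, 138 were still called and all kept their direction. Where the groups do not overlap, leaving out a library cannot change the direction. The 24 named genes were all still called without Retina 3. With the filter set at 2 libraries, 354 genes were called without Retina 3, 204 of them higher in retina. Leaving out Retina 1 or Retina 2 lowered the count further than leaving out Retina 3 did. The fit without the 4 shallowest libraries, given next, kept only medulla 3 of the medulla, so it had little power to call genes. Without the 4 libraries under 500000 recovered reads, Retina 3 among them, 18 genes were called. Of the 12 named retina genes, 5 were then still called and 7 were not tested, and of the 12 named optic lobe genes 3 were still called and 9 lost their call, all with their direction kept where tested.

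Of the 231 genes higher in optic lobe, 146 (63.2%) had their highest plate mean in another neural tissue, against 39.3% of tested genes. The optic lobe itself was the peak for 29.9%, against 6.09% of tested genes. The choice of genes for high levels in a neural tissue raises these shares. Of the 231, 216 had all 3 retina libraries below all 6 optic lobe libraries, against 6.80% of all tested genes. The medulla mean exceeded the periphery mean in 160 of them (69.3%), while it did so in 43.5% of tested genes.

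LOC106871860 had the largest difference. It was at 4238, 6565 and 1529 TPM in medulla 1, 2 and 3, at 1771, 218 and 1252 TPM in periphery 1, 2 and 3, and at 0, 1.80 and 8.92 TPM in Retina 1, 2 and 3. All optic lobe libraries were far above the retina, although they spanned a wide range among themselves, and the log2 difference was -9.10 ± 0.89 (SE, n = 3 and 6; limma adjusted p = 0.000104). The medulla had the highest mean of all 46 tissues, followed by the anterior superior buccal lobe with 3560 TPM and the posterior salivary gland with 2360 TPM. The median over the 13 other neural tissues was only 24.4 TPM.

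LOC106867946 and LOC106882732 also peaked in the medulla. The former was at 2961, 4252 and 1911 TPM in medulla 1 to 3, at 104, 887 and 1684 TPM in periphery 1 to 3, and at 62.9, 0.696 and 6.91 TPM in Retina 1 to 3. Retina 1 was thus close to periphery 1, the lowest optic lobe library, and the log2 difference was -7.04 ± 1.07 (limma adjusted p = 0.00193). The latter was at 959, 848 and 227 TPM in the medulla, 162, 138 and 255 TPM in the periphery and at most 6.73 TPM in the retina. Its medulla and periphery values overlapped, and none came near the retina.

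LOC106875689 was low and even in the retina, at 0.668, 0 and 0 TPM. The optic lobe libraries ran from 143 to 434 TPM with a median of 279, and the log2 difference was -7.77 ± 0.68 (limma adjusted p = 4.78e-05). Here the optic lobe was not the peak: the superior frontal lobe, part of the learning circuit with the vertical lobe, had a mean of 868 TPM, and no other replicated neural tissue fell below 25.6 TPM. LOC106869419 was likewise highest in the superior frontal lobe, at 6022 TPM, and the optic lobe parts ranked 14 and 20 of 46. Its optic lobe libraries ran from 381 to 2459 TPM against 16.3, 4.95 and 0 TPM in Retina 1, 2 and 3, with no overlap.

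LOC106867969, a gene with a RefSeq non-coding record, was listed at 0 in all 3 retina libraries. It was at 33.9, 124 and 44.9 TPM in medulla 1 to 3 and at 726, 93.9 and 133 TPM in periphery 1 to 3. In the shallowest retina library 3 reads would be worth 32.3 TPM. The optic lobe mean of 193 TPM, raised by periphery 1, was 5.96-fold that worth. The medulla mean was only 67.5 TPM, and medulla 1 lay close to that worth. The left lateral part of the vertical lobe, the lobe of learning and memory, held more, with a mean of 600 TPM.

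The other 6 named genes, LOC106874383, LOC106869949, LOC106867432, LOC106883167, LOC106880260 and LOC106879613, had log2 differences of -7.45 to -6.71. None exceeded 24.8 TPM in a retina library, and none fell below 48.1 TPM in an optic lobe library. LOC106880260 was the only one of the 12 with its top mean in the periphery, at 588, 251 and 292 TPM in periphery 1 to 3. LOC106879613 was highest in blood, at 852 TPM in a single library.

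**Figure D3:**
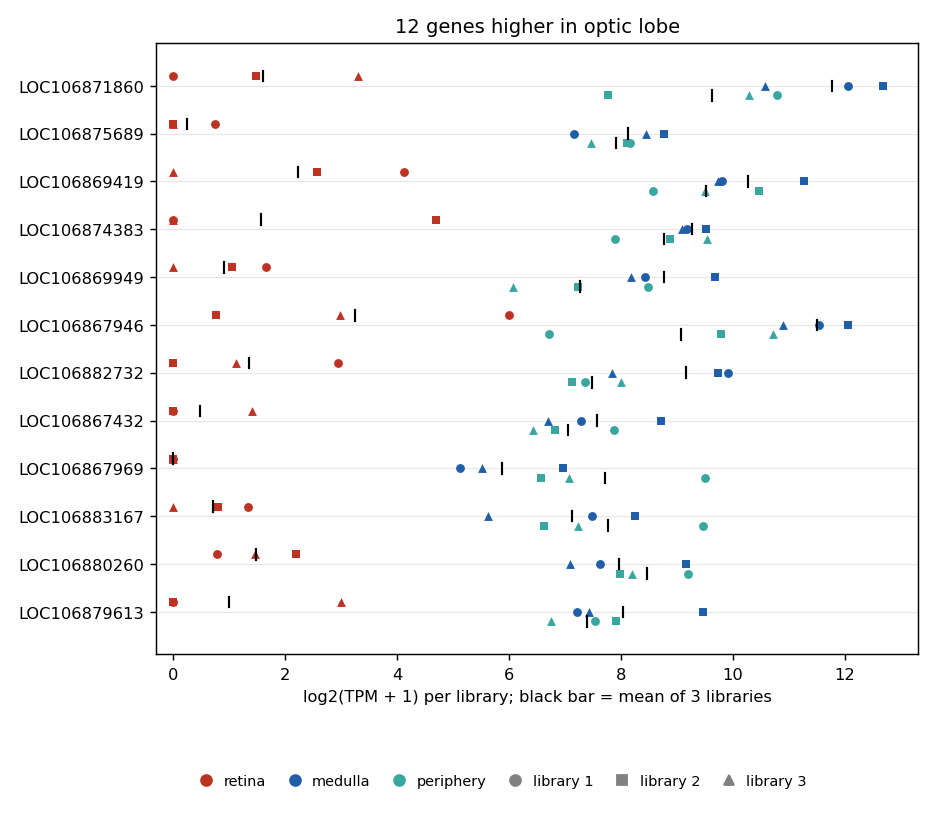
log2(TPM + 1) of the 12 optic lobe genes in each of the 9 libraries, with colours and symbols as for the retina genes and black bars at the mean of 3 libraries. Retina values lie to the left of all medulla and periphery values, and the medulla and periphery overlap for most genes.

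Across the plate, 169 of the 231 optic lobe genes (73.2%) were at 1 TPM or more in all 13 other replicated neural tissues, against 55.2% of tested genes and 16.49% of the retina genes. The median of their median level in those 13 tissues was 21.0 TPM, beside 0.672 TPM for the retina genes and 8.27 TPM for all tested genes. Both lists were chosen by their level in the optic lobe, itself neural, so much of this contrast is set by the choice. The medulla was the top tissue for 49 and the periphery for 20, against 312 and 323 of the 10428 tested genes. Another neural tissue was the peak for 146, the superior frontal lobe leading with 28. Only 16 of the 231 peaked in a non-neural tissue, against 5476 of the 10428 tested genes even without those that peaked in the retina. The 231 genes made up 4.23% to 10.4% of TPM in the optic lobe libraries and 0.118% to 0.268% in the retina. Non-coding records were held by 35 of them (15.2%), beside 6.36% of all tested genes.

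The second table holds 1 single neuron from each optic lobe part, scaled separately, so only presence is given. Of the optic lobe genes, 91.3% were at 1 TPM or more in the periphery neuron and 87.4% in the medulla neuron. Of the retina genes, 73.2% and 76.3% were, and of all tested genes 85.0% and 83.4%. The choice of both lists by optic lobe level bears on these shares. A level of 1 TPM in a single neuron was thus common also for genes that were low in the whole optic lobe, and these libraries have no replicate.

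**Figure D4:**
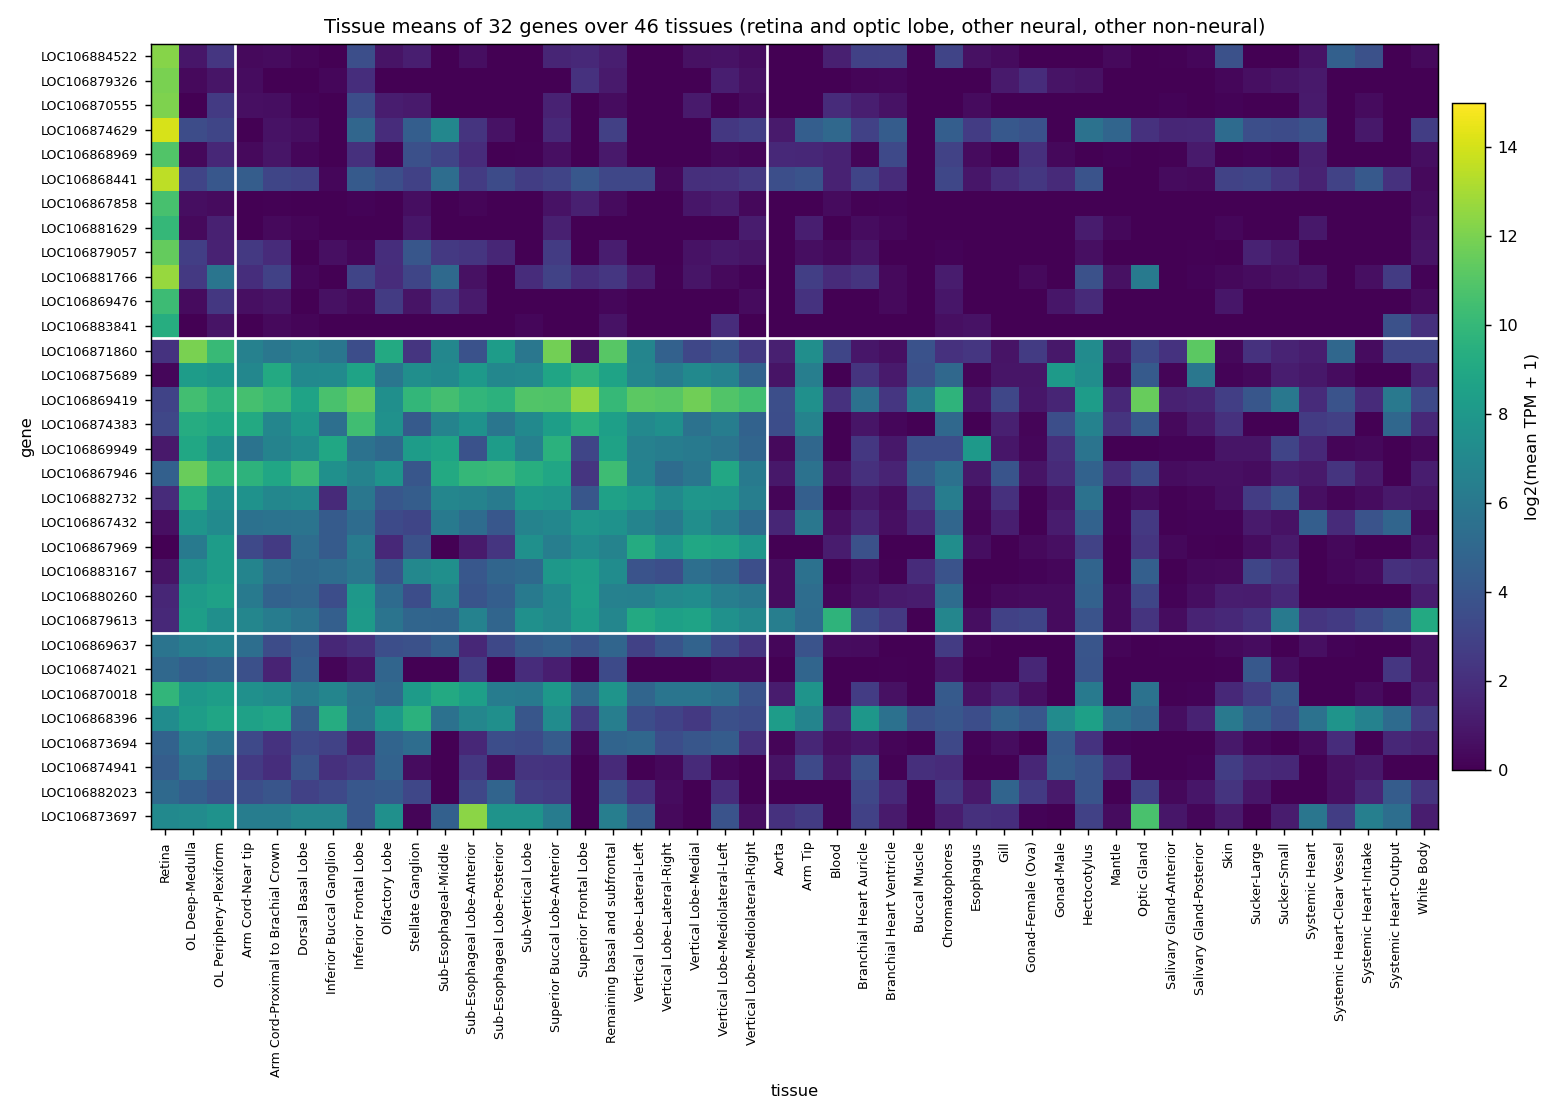
Tissue means as log2(mean TPM + 1) of the 12 retina genes, 12 optic lobe genes and 8 shared genes (rows, separated by white lines) in 46 tissues (columns: retina and optic lobe, other neural, other non-neural). The retina genes are bright in the retina column, the optic lobe genes across most neural columns, and the shared genes in all 3 visual columns with further tissues in most rows.

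Genes shared by the visual tissues were sought among 54 libraries of the 18 plate tissues with 3 libraries each. The mean of retina and optic lobe was set against that of 15 others, 13 neural tissues and both branchial heart parts. Of 14029 genes tested, limma called 324 (2.31%) higher in the visual tissues. Only 53 (0.378%) also had each of the 3 visual means at least 1 log2 unit above the others and no call between retina and optic lobe; the rule sets their direction, and a missed call does not show equal levels. Their smallest difference of the 3 lay between 1.02 and 2.58.

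LOC106869637 led by that measure. It was at 29.0, 33.2 and 99.6 TPM in Retina 1 to 3, at 105, 103 and 45.96 TPM in medulla 1 to 3 and at 170, 61.3 and 72.9 TPM in periphery 1 to 3. The 3 tissues overlapped, and they held the top ranks of the 46 tissues, ahead of the arm cord near its tip with 41.9 TPM in 1 library. The visual tissues exceeded the 15 others by 3.02 ± 0.46 on the log2 scale (limma adjusted p = 7.04e-06), and retina against optic lobe gave -0.88 ± 0.70 (limma adjusted p = 0.61). LOC106873084, chosen after its values were seen, was the other one of the 53 with the 3 visual tissues at the top. Its retina libraries ran from 4.58 to 135 TPM and its optic lobe libraries from 2.06 to 45.5 TPM.

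LOC106874021 was at 49.7, 33.3 and 14.6 TPM in Retina 1 to 3, at 26.2, 0 and 36.8 TPM in the medulla and at 20.7, 29.4 and 29.7 TPM in the periphery. Apart from the 0 in medulla 2, a library of 303952 recovered reads in which 3 reads of this gene would be worth 7.96 TPM, its levels lay close together. In the 13 other neural tissues the means had a median of 0.323 TPM and a highest value of 21.5 TPM, and the single libraries of the olfactory lobe and the arm tip held 28.5 and 28.2 TPM. All of these but the median were above the medulla mean of 21.0 TPM. The visual excess was 3.66 ± 0.41 (limma adjusted p = 4.33e-09).

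LOC106870018 reached 315, 169 and 2319 TPM in Retina 1 to 3 and 77.3 to 473 TPM in the optic lobe, with a median of 264. Retina 3 stood apart, while Retina 1 and 2 lay within the optic lobe range. The middle and anterior subesophageal lobes held 547 and 350 TPM in 1 library each, above the medulla mean of 251 TPM. LOC106868396 was at 246, 140 and 84.5 TPM in the retina and 97.9 to 549 TPM in the optic lobe, and the stellate ganglion held more, with a mean of 769 TPM. LOC106873694 was lower in all retina libraries, 20.4 to 34.9 TPM, than in any optic lobe library, 40.3 to 170 TPM, without a call (log2 difference -1.37 ± 0.69; limma adjusted p = 0.39).

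The other 3 of the 8 named genes were less even. LOC106874941 ran from 3.45 to 50.1 TPM in the retina and from 1.495 to 112 TPM in the optic lobe. LOC106882023, with a non-coding record, ran from 22.3 to 50.2 TPM in the retina and from 8.45 to 30.1 TPM in the optic lobe, on 19 retina reads in all. LOC106873697 was at 403, 4.84 and 12.0 TPM in Retina 1 to 3 and at 19.7 to 346 TPM in the optic lobe. Its visual excess of 3.02 ± 0.74 (limma adjusted p = 0.0086) was no longer called without Retina 1 (2.10, limma adjusted p = 0.23) or on the deposited scale (2.29, limma adjusted p = 0.10). The anterior subesophageal lobe held 5439 TPM of it in 1 library, far above any visual tissue.

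**Figure D5:**
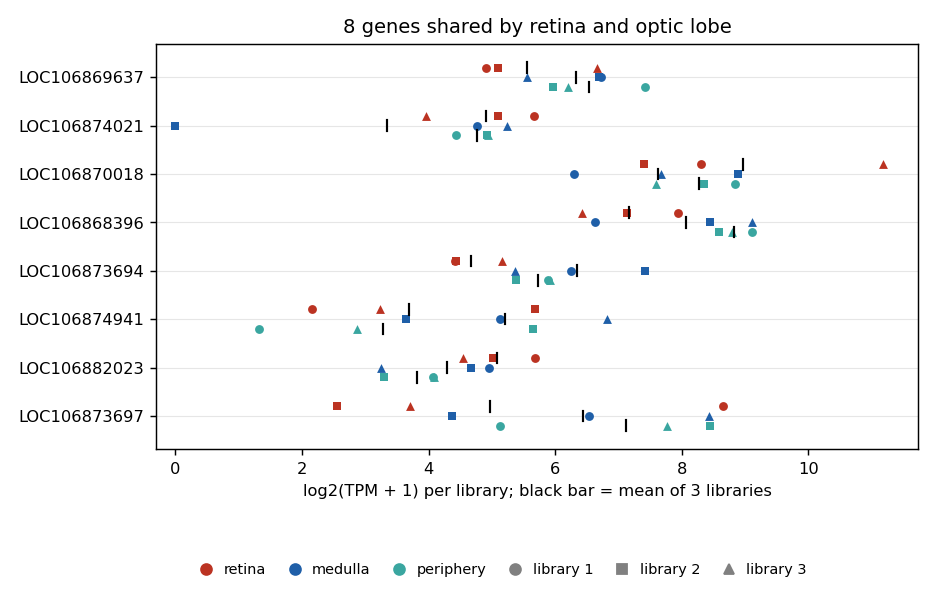
log2(TPM + 1) of the 8 shared genes in each of the 9 libraries, with colours and symbols as for the retina genes and black bars at the mean of 3 libraries. Retina values overlap the pooled optic lobe values for every gene but LOC106873694, whose 3 retina values lie below its 6 optic lobe values; against the periphery alone, LOC106868396 lies lower in the retina and LOC106882023 higher, without overlap.

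Among the 53, the highest mean on the plate was in the periphery for 14, the retina for 13 and the medulla for 4, and outside the visual tissues for 22. The 3 visual tissues filled the top 3 places for 2 of the 53, and for 0.0927% of all genes tested there. Of the 53, 4 had a non-coding record, beside 6.36% of the 10428 genes tested between retina and optic lobe.

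The most abundant transcripts that retina and optic lobe held in common without a call were LOC106867166, LOC106877184, LOC106869301, LOC106873160, LOC106876508 and LOC106872007. LOC106867166 was at 50968, 23635 and 11376 TPM in Retina 1 to 3, at 67349, 4024 and 8069 TPM in the medulla and at 37282, 11380 and 27412 TPM in the periphery. The tissues overlapped across a wide range (log2 difference 0.48 ± 0.96, limma adjusted p = 0.89), an error too large to show that the levels were equal. LOC106877184, with a non-coding record, and LOC106869301 were both highest among the retina libraries in Retina 3, at 45242 and 38068 TPM, against 1988 and 3333 TPM in Retina 1. LOC106872007 and LOC106873160 had the differences closest to 0, -0.0071 ± 0.82 and 0.01 ± 0.72 on the log2 scale. LOC106872007 ran from 1470 to 5929 TPM in the retina and 1087 to 13483 TPM in the optic lobe. LOC106873160 ran from 1975 to 9243 TPM in the retina and 2747 to 6832 TPM in the optic lobe.

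Of the 18 sequences that carry a name of their own in the table, 7 passed the filter and none was called between retina and optic lobe. Betsin was at 0 in all retina libraries and in medulla 1 and 2 and periphery 1, and at 114, 156 and 89.8 TPM in medulla 3, periphery 2 and periphery 3. The libraries with Betsin were thus the 3 deepest of the 9, and they held 514 of its reads in all. The part of depth in the values of 0 was not tested. The log2 difference was -3.44 ± 1.72 (limma adjusted p = 0.39). VLPep3 was at 56.8 TPM in Retina 1 alone of the retina libraries, and at 242, 319 and 126 TPM in the same 3 optic lobe libraries. GNRH, named like gonadotropin-releasing hormone, reached 9.54 TPM in Retina 1 and at most 21.0 TPM in the optic lobe.

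Insulin1 was at 144, 12.9 and 0 TPM in Retina 1 to 3 and at 0 to 42.1 TPM in the optic lobe (log2 difference 1.42 ± 1.58, limma adjusted p = 0.76). Sp12 was above 0 in all retina libraries, at 34.6, 16.1 and 17.8 TPM, within the optic lobe range of 0 to 243 TPM. Sp38 and IRELamide2 overlapped likewise. APGW appeared in Retina 3 only, at 18.01 TPM on 1 read, and the other 10 were listed at 0 in all 9 libraries. All of these 10 but IRELamide1 were at 0 in every plate tissue, so their 0 says nothing particular to retina or optic lobe. LOC106873941, which RefSeq gives the synonym OTX, a homeobox factor of head and eye development in other animals, was at 0, 1.45 and 7.22 TPM in Retina 1 to 3 and at 0.567 TPM in periphery 2 alone of the optic lobe. LOC106871116, with the synonym hedgehog, a secreted signalling protein, was at 7.46 TPM in medulla 3 and 12.4 TPM in periphery 2 and at 0 elsewhere. Neither passed the filter, so neither was tested.

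Some called genes lay side by side in the gene order of the RefSeq assembly ASM119413v2, used here for neighbours only. Neighbours were consecutive genes of the expression data on the same assembly sequence, at any distance. Genes absent from these data may lie between them. Of 175 retina genes with a place, 21 (12.0%) were next to another retina gene, while 2.29% of tested genes with a place were next to one. The longest run was LOC106879318, LOC106879326 and LOC106879327. LOC106879326 is among the most abundant retina genes, whereas its neighbours stayed at 1.67 to 11.0 TPM and 3.87 to 8.57 TPM in the retina, with all 6 optic lobe libraries at 0. These neighbours rest on 15 and 18 retina reads and passed the filter through the retina alone, and 3 reads in the shallowest optic lobe library would be worth 4.52 and 6.34 TPM, so the run is uncertain at this depth. Of 200 optic lobe genes with a place, 21 (10.5%) were next to another, against 2.21% of tested genes. Their longest run was LOC106872688, LOC106874176, LOC106880260 and LOC106882960, of which LOC106880260 ran from 135 to 588 TPM in the optic lobe and the others from 2.40 to 42.9 TPM, where 3 reads in Retina 3 would be worth up to 6.77 TPM. How the authors' counting treated reads shared between similar neighbours is not given in the sources used here.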

How the data were processed

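RNA sequencing libraries of whole tissue were analysed from the deposited expression table of the plate. The TPM values were made by the authors: per the submitters' processing notes the tools were Trimmomatic 0.32, STAR 2.3, featureCounts and edgeR 3.14.0, whose roles, like the genome build, are not stated in these sources. The labels' protocols name NEBNext Ultra I or II kits.

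From the deposited TPM, 92 spike-in rows were dropped, columns were rescaled to sum to 1e6, and each of 17545 genes was given its row with the highest mean. The test was limma 3.58.1 in R 4.3.3 (trend on the mean, pseudocount 1, Benjamini-Hochberg adjustment, two-sided) over the 9 libraries of 3 tissues, or over 54 libraries for the shared genes. Genes needed 1 TPM in 3 libraries. Reads were recovered for 15980 genes as whole multiples (tolerance 0.05) of a step. A step was accepted only where the low values came out whole, so the 100% of low values that did so is no check. Voom on these reads called 535 genes. In the 9 libraries the genes with recovered reads carried 87.3% to 98.5% of the TPM in the kept rows, 1 per gene. Those rows held 64.7% to 71.1% of TPM without spike-ins.

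Named genes were the 12 largest called differences in each direction with non-overlapping groups and 10 TPM, the 8 shared genes with the largest smallest difference, the 6 most abundant genes not called, and the 18 named sequences. The members, lists and rules were chosen with earlier results of these data known. Lists by product name (light cascade, lens proteins, eye factors, synapse, channels, muscle, blood and others) and cell type markers could not be applied, since RefSeq ASM119413v2, which matched 15476 gene IDs, gives no product names here. A single simulated table of the comparison between retina and optic lobe held 11269 genes, with the same dispersion for every gene and independent libraries. There the test recovered 2.04% of 98 genes changed 4-fold and 60.8% of 97 changed 16-fold, with 3 false calls among 64. Smaller differences thus mostly went uncalled in that setting. The real libraries, with 425 calls, need not meet it, so these rates may not carry over. Floors of 3 reads cover counting error only. Alternatives covered pseudocount, filter, scaling, rows per gene, weights, recovered reads, each library left out and blocks.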

Additional observations from a re-analysis of the deposited data

Results flagged for a closer look

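Dixon's ratio was taken over the 6 optic lobe libraries for 32 named genes, and 6 of them had a library apart (ratio above 0.625); chance flags about 1 group in 20. In 3 retina genes periphery 1 stood above the other optic lobe libraries: LOC106870555 was at 14.3 TPM there, on 5 reads, and at 0 in the other 5, LOC106868969 at 6.43 TPM and LOC106881629 at 4.85 TPM. LOC106883841 was at 2.16 TPM in periphery 2 and at 0 in the rest, a value worth 4 reads in all. For LOC106870555 and LOC106883841, with 5 libraries at 0, any value above 0 gives the highest ratio, so the rate of 1 in 20 does not apply to them. LOC106868969 and LOC106881629 also had several optic lobe libraries tied at 0, so that rate need not hold for them either. Among shared genes, LOC106874021 was at 0 in medulla 2 and LOC106868396 at 97.9 TPM in medulla 1, both below the other optic lobe libraries. Both of these medulla libraries had under 500000 recovered reads.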

How the results depend on the processing

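All of the 425 called genes that could be tested kept their direction under every alternative. For the 409 whose groups did not overlap, many of these alternatives could not have changed it. The counts moved more. On the deposited scale with spike-ins 199 genes were called, 121 higher in retina and 78 higher in optic lobe, and 19 were shared. Quantile scaling left 153 higher in optic lobe. Sample weights gave 742 calls (308 and 434), and all 54 libraries in the fit gave 827 (342 and 485). Recovered reads with voom gave 104 shared genes. Leaving out 1 library gave 141 to 408 calls, 54 to 185 higher in retina, 87 to 226 higher in optic lobe and 38 to 74 shared. The replicate block gave 222 calls (109 and 113). Deviations of same-numbered libraries from their tissue means correlated at -0.47 to 0.23 over 9 pairs, so the numbers were not taken to pair the libraries. Differently numbered libraries ranged more widely, from -0.534 for medulla 3 with periphery 1 to 0.595 for medulla 3 with periphery 2. Retina 1 with medulla 3 gave 0.498. What such libraries share was not tested, and the main fit takes all libraries as independent. The letter closing each label as a block gave 382 calls. With the libraries of letter C alone limma called 0 genes (0 and 0; 503 at an unadjusted p under 0.05), with 1 residual degree of freedom. Among alternatives added after seeing the data, the filter at 2 libraries without Retina 3 left 150 higher in optic lobe, and leaving out the 4 shallowest libraries left 18 calls (11 and 7). The cause was not tested in any of these, and the fit without the 4 shallowest libraries kept a single medulla library. Of the 8 shared genes, 6 stayed in all 23 alternatives, LOC106874941 in 22 and LOC106873697 in 21.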
